A study of Mus musculus with 6 samples.

Results

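The genes described here are 10 genes of the interleukin 6 (IL6) family, its receptors and the JAK and STAT3 route inside the cell: Il6, Lif, Il6ra, Il6st, Lifr, Osmr, Jak1, Jak2, Stat3 and Socs3. They were selected by exact symbol, each matching 1 row, from a table of 43283 gene identifiers. RNA sequencing compared muscle stem cells kept in culture for 24 h with prostaglandin E2 (PGE2), a lipid mediator of inflamed and injured tissue, with cells given DMSO (Vehicle), in 3 libraries per group. All cells came from hindlimb muscle of female C57BL/6 mice and carried no engineered allele that the labels name. The mice were 8 to 12 weeks old by the sample labels and 2 to 4 months by the series text. Cells were sorted for α7-integrin and CD34 and against CD45, Sca1, CD31 and CD11b, and both groups grew in medium with 20% fetal bovine serum, which can itself carry cytokines. The labels state neither the PGE2 dose nor whether each library had its own animal or culture, so the p-values here reflect how far these libraries spread, which can be partly technical.

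IL6 family cytokines signal through the shared receptor subunit gp130, encoded by Il6st. A ligand binds gp130 together with a partner, the IL6 receptor (Il6ra), the LIF receptor (Lifr) or the oncostatin M receptor (Osmr). This activates the kinases JAK1 and JAK2. These phosphorylate STAT3, which enters the nucleus and switches on targets such as Socs3, an inhibitor that shuts the pathway down. In muscle stem cells the pathway is known for its part in proliferation, self-renewal and the timing of differentiation.

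Of the 10 genes, 9 reached the level for testing (a value of at least 1 TPM, the length-corrected share of a library's transcripts, in 3 or more libraries), and none passed the test after PGE2. Stat3 had the largest fitted difference among them, 15.2 ± 3.63 TPM with PGE2 against 8.23 ± 3.38 TPM in Vehicle (mean ± SD, n = 3 each), and its groups overlapped. The receptor subunit Il6st and the kinase Jak1 were the most abundant, with similar group means and a PGE2 group that was spread around the Vehicle group. The ligands Il6 and Lif, the receptor Il6ra and the inhibitor Socs3 were all low. Socs3 stayed below 1 TPM in 4 libraries and was not tested.

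Short stretches of promoter are shown for the 4 genes in which a motif searched for was found: Socs3 with the palindrome bound by STAT factors, and Jak1, Il6 and Il6ra with the full or the short form of the cAMP response element (CRE), bound by CREB, a factor that PGE2 can activate through its cAMP-coupled receptors. They run 5′ to 3′ on the strand of the gene, from RefSeq on GRCm38.p6, and capitals mark the motif.
Socs3: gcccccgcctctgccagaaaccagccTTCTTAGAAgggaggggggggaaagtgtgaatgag
Jak1: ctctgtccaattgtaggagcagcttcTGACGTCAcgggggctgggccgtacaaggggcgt
Il6: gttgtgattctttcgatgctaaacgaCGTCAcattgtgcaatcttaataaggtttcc
Il6ra: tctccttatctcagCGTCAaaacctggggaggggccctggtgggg
The Socs3 stretch lies at chr11:117969486-117969546 on the minus strand, the Jak1 stretch at chr4:101265291-101265350 on the minus strand, the Il6 stretch at chr5:30012953-30013009 on the plus strand, and the Il6ra stretch at chr3:89913402-89913446 on the minus strand. The motif ends 145 bases before the RefSeq start in Socs3, 93 in Jak1, 130 in Il6 and 231 in Il6ra. The Socs3 stretch lies before the RefSeq start but inside the gene span of GENCODE M21, downstream of the outermost start there and in none of its exons. Both strands of the 250 bases before each start were searched for the STAT palindrome TTCNNNGAA, the full CRE TGACGTCA and the CRE short site TGACG, and each full CRE also counts as a match to the shorter one. All 10 genes were matched, with 11 promoters. The STAT palindrome was in 1 of them (Socs3) and in 7.02% of all 32851 promoters in the RefSeq table, and the full CRE was in 1 (Jak1) and in 1.55% of all. The shorter site was in 3 (Il6, Il6ra and Jak1) and in 17.8% of all. A match describes these letters and is not a measured binding site.

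Facts of the whole series bear on what can be seen. The library PGE2 1 stood apart: it had the fewest genes listed above 0 (15400, against 16446 to 19677 in the other 5) and the largest median-ratio scale factor (1.21, against 0.870 to 1.05). All 8 markers of muscle stem cells were tested, and their sum ran from 576 to 656 TPM in Vehicle and 449 to 611 TPM with PGE2. Levels were uneven among the 8. Myf5 (119.8 to 302.9 TPM over the 6 libraries) and Myod1 (89.5 to 146.2 TPM) had the highest means. Itga7 was at 2.69 to 13.2 TPM, and Cdh15 was at 1 TPM or more in only 3 libraries. The sum of 8 leukocyte markers was 3.36 to 10.6 TPM in Vehicle and 8.25 to 13.8 TPM with PGE2, and that of 6 endothelial markers was 4.16 to 7.42 and 6.90 to 19.9 TPM. In PGE2 3 the endothelial sum rested mostly on Emcn, at 15.27 TPM there and 0.15 to 0.87 TPM in the other libraries. Each other endothelial marker was at 2.54 TPM or less in PGE2 3. The sum of 6 fibro-adipogenic markers was 18.8 to 31.5 and 24.9 to 45.5 TPM. Col3a1 (15.31 to 36.45 TPM) made up most of it in every library, and Ly6a was at 13.55 TPM in PGE2 2. Pdgfra, Dcn, Lum and Dpt stayed at 1.45 TPM or less. Of the other markers, 5 pericyte and smooth muscle genes summed to 6.37 to 15.4 and 9.55 to 11.8 TPM, with Pdgfrb listed at 0 in all 6 libraries, and 4 glial genes to 2.89 to 4.71 and 2.14 to 9.01 TPM. Leukocytes, endothelial cells and fibroblasts also make these cytokines and receptors, and the part of such cells in the low values below was not tested. In bulk RNA, fewer cells of a type and less RNA per cell cannot be told apart.

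**Figure D1:**
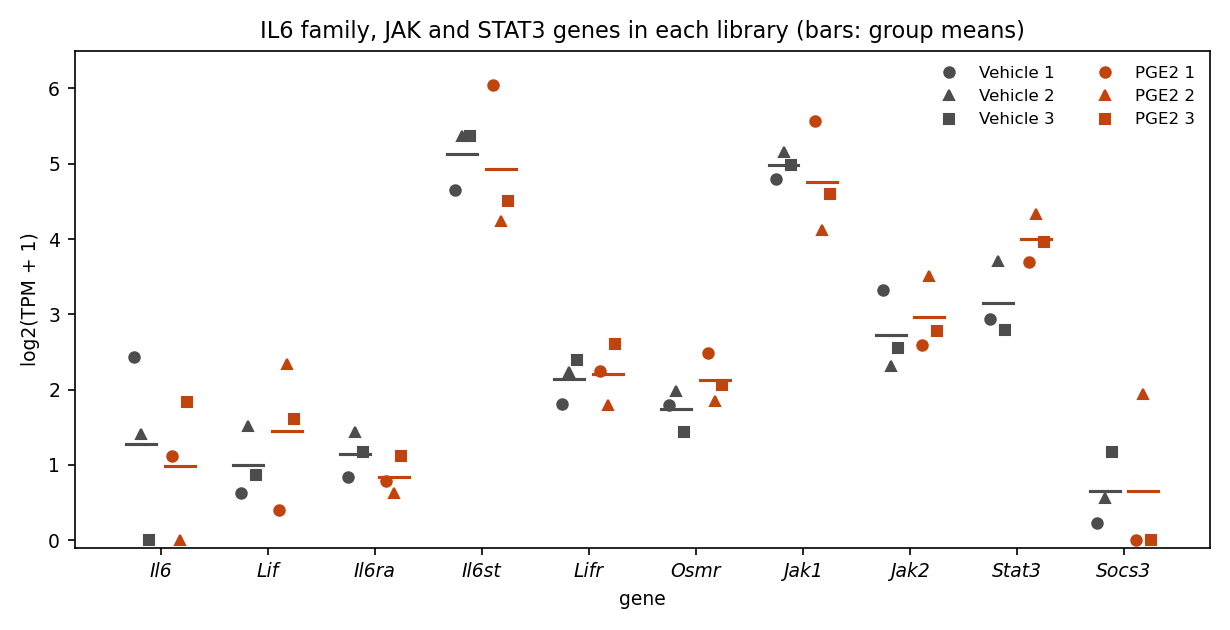
Expression of the 10 genes in each library, as log2(TPM + 1), with Vehicle in grey, PGE2 in orange, a symbol per replicate number and a bar at each group mean. The groups overlap for all 10 genes, and Il6st and Jak1 sit highest with PGE2 1 above and PGE2 2 and PGE2 3 below the 3 Vehicle libraries.

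The ligands, which start the pathway, were among the lowest of the 10 genes. Il6 (ENSMUSG00000025746, mm10 chromosome 5, 30013114 to 30019981, plus strand), the cytokine that muscle and immune cells release after injury or exercise, was at 4.42, 1.65 and 0 TPM in the Vehicle libraries 1 to 3, against 1.17, 0 and 2.57 TPM in PGE2 1 to 3. Each group had 1 library listed at 0, and the highest value was in Vehicle 1. The log2 change of Il6 was -0.30 (95% confidence interval -1.98 to 1.39, limma Benjamini-Hochberg adjusted p = 1.00), the widest interval of the 9 tested genes. Its sign turned without Vehicle 1 (0.28) or without PGE2 2 (0.20). Lif (ENSMUSG00000034394, mm10 chromosome 11, 4257557 to 4272514, plus strand), leukaemia inhibitory factor, which stimulates myoblast growth, was at 0.54, 1.87 and 0.83 TPM in the Vehicle libraries, against 0.32, 4.06 and 2.06 TPM with PGE2. PGE2 2 and PGE2 3 were above all 3 Vehicle libraries and PGE2 1 was below them. For Lif the fitted change was 0.45 (95% confidence interval -0.99 to 1.88, limma Benjamini-Hochberg adjusted p = 1.00). It was 0.0018 without PGE2 2 and 0.97 without PGE2 1.

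The order of the receptors placed gp130 well above its partners. Il6st (ENSMUSG00000021756, mm10 chromosome 13, 112464070 to 112510086, plus strand) was at 24.1, 40.3 and 40.4 TPM in the Vehicle libraries, against 65.1, 17.8 and 21.6 TPM with PGE2. PGE2 1 was the highest of the 6 libraries, and PGE2 2 and PGE2 3 were the lowest. Vehicle averaged 34.9 ± 9.36 TPM and PGE2 34.9 ± 26.3 TPM (mean ± SD, n = 3 each), for a log2 change of -0.20 (95% confidence interval -1.30 to 0.90, limma Benjamini-Hochberg adjusted p = 1.00). Without PGE2 1 the log2 change of Il6st was -0.76, with an unadjusted limma p of 0.0684. Without PGE2 2 it was 0.14 and without PGE2 3 it was 0.010, so its size and sign depended on which PGE2 library was left out.

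Il6ra (ENSMUSG00000027947, mm10 chromosome 3, 89864059 to 89913196, minus strand), the subunit that binds IL6 itself, was at 0.79, 1.71 and 1.26 TPM in the Vehicle libraries, against 0.72, 0.55 and 1.17 TPM with PGE2. No library exceeded 1.71 TPM, and Il6ra passed the filter with exactly 3 libraries at 1 TPM or more. It shares exon sequence with the antisense gene Gm42809 in GENCODE M21. Within each library, Il6st was 23.6 to 32.02 times Il6ra in Vehicle and 18.5 to 90.5 times with PGE2, a ratio of levels per transcript length that scaling of the libraries does not touch. Il6ra had a log2 change of -0.31 (95% confidence interval -1.48 to 0.87, limma Benjamini-Hochberg adjusted p = 1.00), which became -0.011 after quantile normalization.

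Both partner receptors of other family ligands stood between Il6st and Il6ra. Lifr (ENSMUSG00000054263, mm10 chromosome 15, 7090614 to 7197489, plus strand), which pairs with gp130 for LIF, was at 2.5, 3.71 and 4.24 TPM in the Vehicle libraries, against 3.76, 2.46 and 5.07 TPM with PGE2. The groups interleaved, and the log2 change of 0.070 (95% confidence interval -1.11 to 1.25, limma Benjamini-Hochberg adjusted p = 1.00) turned negative without Vehicle 1 (-0.10) or PGE2 3 (-0.12). Osmr (ENSMUSG00000022146, mm10 chromosome 15, 6813577 to 6874969, minus strand), the partner for oncostatin M, was at 2.46, 2.96 and 1.71 TPM in the Vehicle libraries, against 4.60, 2.61 and 3.18 TPM with PGE2. PGE2 1 and PGE2 3 were above all Vehicle libraries and PGE2 2 was not. Osmr had a log2 change of 0.40 (95% confidence interval -0.78 to 1.57, limma Benjamini-Hochberg adjusted p = 1.00). It was 0.22 without PGE2 1, a smaller value by over 1.5 times.

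**Figure D2:**
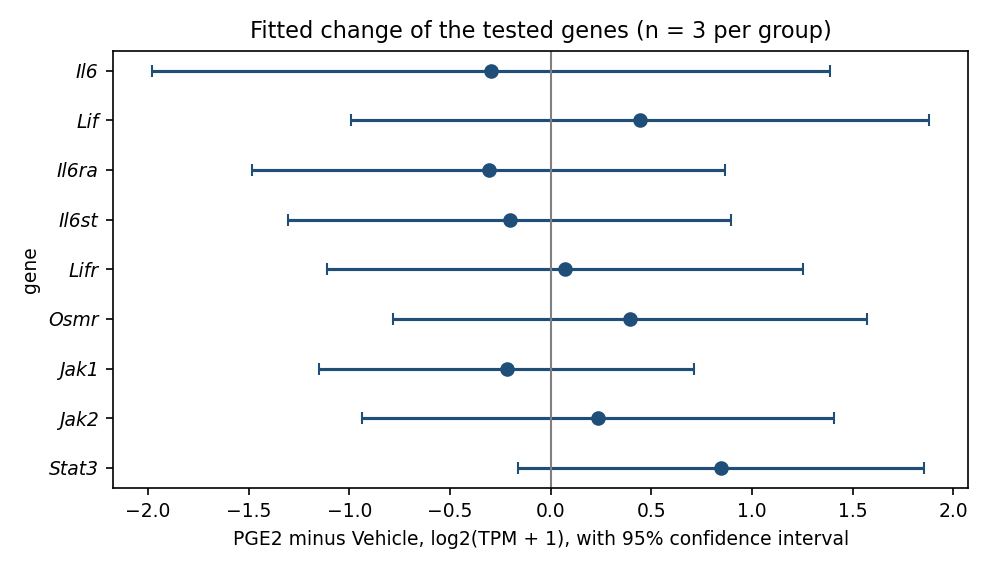
Fitted log2 change (PGE2 minus Vehicle, log2(TPM + 1) scale) of the 9 tested genes, with 95% confidence intervals as bars, n = 3 per group. Every interval covers 0, and Stat3 comes nearest to leaving it out, with bounds of -0.16 and 1.86.

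Of the kinases, Jak1 was above Jak2 in all 6 libraries. Jak1 (ENSMUSG00000028530, mm10 chromosome 4, 101152367 to 101265282, minus strand), the kinase that gp130 signalling depends on most, was at 26.9, 34.6 and 30.8 TPM in the Vehicle libraries, against 46.5, 16.4 and 23.3 TPM with PGE2. The PGE2 libraries fell on both sides of the Vehicle range, in the same arrangement as Il6st: PGE2 1 highest, PGE2 2 lowest, PGE2 3 next lowest. Jak1 had a log2 change of -0.22 (95% confidence interval -1.15 to 0.71, limma Benjamini-Hochberg adjusted p = 1.00), with -0.62 without PGE2 1 and 0.10 without PGE2 2. Jak1 shares exon sequence with Raver2 on the opposite strand, which reached 3.83 TPM at most. The level of Il6st relative to Jak1 ran from 0.896 to 1.31 in Vehicle and 0.931 to 1.40 with PGE2. Jak2 (ENSMUSG00000024789, mm10 chromosome 19, 29251828 to 29313080, plus strand), which also serves growth hormone and erythropoietin receptors, was at 8.97, 3.98 and 4.86 TPM in the Vehicle libraries, against 5.06, 10.4 and 5.85 TPM with PGE2. PGE2 2, the lowest library for Jak1, was the highest for Jak2, and the ratio of Jak1 to Jak2 ran from 1.57 in PGE2 2 to 9.19 in PGE2 1. Jak2 had a log2 change of 0.23 (95% confidence interval -0.94 to 1.41, limma Benjamini-Hochberg adjusted p = 1.00), which became -0.041 without PGE2 2.

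Stat3 (ENSMUSG00000004040, mm10 chromosome 11, 100885098 to 100939540, minus strand), the transcription factor at the end of the route and a target of its own protein, was at 6.68, 12.1 and 5.90 TPM in the Vehicle libraries, against 12.0, 19.1 and 14.5 TPM with PGE2. PGE2 2 and PGE2 3 were above all Vehicle libraries, and PGE2 1, at 11.96 TPM, was just below Vehicle 2, at 12.11 TPM. Its fitted log2 change of 0.85 (95% confidence interval -0.16 to 1.86) corresponds to 1.80-fold on the log2(TPM + 1) scale. It did not pass limma's test over all genes (unadjusted p = 0.0910, Benjamini-Hochberg adjusted p = 1.00). An exact two-sided permutation test of Stat3 alone gave p = 0.2, where 3 libraries against 3 cannot give less than 0.1. The value stayed positive in all 17 alternative analyses, from 0.63 with library weights to 1.13 without Vehicle 2, with unadjusted limma p-values between 0.0610 and 0.231. Stat3 shares exon sequence with Stat5a on the opposite strand, and whether the counting used strand is not stated. Stat5a was at 1.88 TPM or less in every library.

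Stat3 and its upstream partners were not arranged alike. The level of Stat3 relative to Jak1 was 0.248, 0.350 and 0.192 in the Vehicle libraries, against 0.257, 1.17 and 0.624 with PGE2. PGE2 1 lay inside the Vehicle range, and PGE2 2 and PGE2 3 lay above it. These ratios were chosen after the values were seen and are given with no test.

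Socs3 (ENSMUSG00000053113, mm10 chromosome 11, 117966079 to 117970047, minus strand), the feedback inhibitor with the STAT palindrome printed above, was at 0.17, 0.47 and 1.25 TPM in the Vehicle libraries, against 0, 2.86 and 0 TPM with PGE2. A single PGE2 library held the highest value and the other 2 were listed at 0, where an exact 0 can be a failed estimate. That library, PGE2 2, was also the highest for Stat3, Lif and Jak2. Socs3 missed the filter, with 2 libraries at 1 TPM or more. Its group means on the log2(TPM + 1) scale differed by -0.0012, with SDs of 0.48 in Vehicle and 1.13 with PGE2 (n = 3 each).

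**Figure D3:**
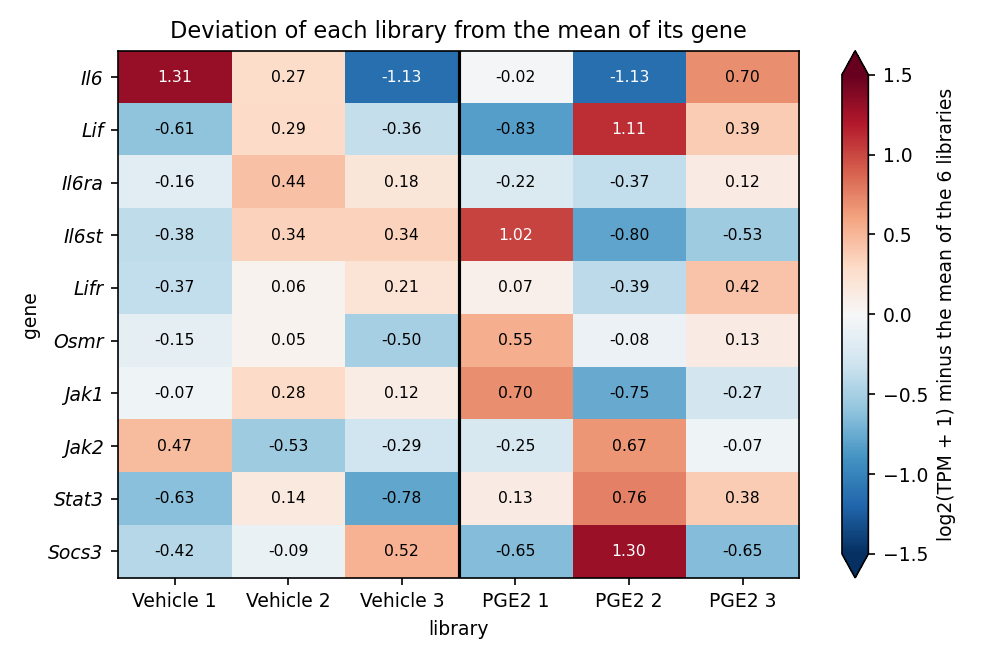
Deviation of each library from the mean of the 6 libraries for each gene, on the log2(TPM + 1) scale, red above and blue below, with Vehicle left and PGE2 right of the line. Il6st and Jak1 are highest in PGE2 1 (1.02 and 0.70) and lowest in PGE2 2 (-0.80 and -0.75), while Stat3, Socs3, Lif and Jak2 are highest in PGE2 2 (0.76, 1.30, 1.11 and 0.67).

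By the mean over the 6 libraries, the order of levels in TPM was Il6st (34.9), Jak1 (29.7), Stat3 (11.7), Jak2 (6.52), Lifr (3.62), Osmr (2.92), Il6 (1.64), Lif (1.61), Il6ra (1.03) and Socs3 (0.792). The ranges of every pair of neighbours in this order overlapped. Jak2 exceeded Lifr in 6 of 6 libraries, and Il6 exceeded Lif in 3 of 6. Il6st stood at the 77.3 percentile of the mean levels of all 12781 tested genes, Stat3 at the 54.4 percentile and Il6ra at the 2.21 percentile.

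The 9 tested genes were counted beside all tested genes. With PGE2 the fitted value was higher for 5 of them and lower for 4, and the median log2 change was 0.070. Over all 12781 tested genes 43.9% were higher and the median was -0.068. The number of the 9 past a Benjamini-Hochberg adjusted p of 0.05 in limma was 0, where 0% of all tested genes passed. At an unadjusted limma p under 0.05 it was again 0, where 3.63% of all tested genes passed. The groups did not overlap for 0 of the 9, against 8.01% of all tested genes. The SD on the log2 scale was larger with PGE2 than in Vehicle for 5 of the 9 genes and for 69.5% of all tested genes. PGE2 1 was the highest library for 3 of the 9 (Il6st, Osmr and Jak1) and for 30.1% of all tested genes. PGE2 2 was the highest for 3 of the 9 (Lif, Jak2 and Stat3) and for 18.2% of all.

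A wider set of 75 genes of the pathway, which includes the 10, was counted by role. Of these 55 were tested, and with PGE2 the fitted value was higher for 29 and lower for 26. None passed limma's Benjamini-Hochberg adjusted test. The groups did not overlap for 3 of the 55, Socs4, Adam10 and Bcl2l1, all with PGE2 lower, where 4.84% of all tested genes did so in that direction, and for 0 with PGE2 higher (3.18% of all).

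Among the 11 ligands and ligand partners, 5 were tested, 3 higher and 2 lower. Clcf1, a gp130 ligand for the ciliary neurotrophic factor receptor complex, had the highest mean and overlapped between the groups. It was at 17.4, 15.8 and 29.04 TPM in the Vehicle libraries, against 11.2, 26.6 and 20.2 TPM with PGE2. Cntfr, the specific subunit of that receptor, was at 0.23 TPM in Vehicle 1 and listed at 0 in the other 5 libraries. Osm, Il27 and Ebi3 were listed at 0 throughout. Il11, a ligand that acts through Il11ra1 and gp130, was too low to test and was singled out after its values were seen. It was at 0, 0.25 and 0 TPM in the Vehicle libraries, against 1.04, 2.58 and 0.46 TPM with PGE2, without overlap. How often genes too low to test show no overlap was not counted, so this has no background share beside it. Of the 8 receptors, 5 were tested, 3 higher and 2 lower. Il11ra1 averaged 11.9 TPM over the 6 libraries, against 34.9 TPM for Il6st. In Vehicle 1 it was at 21.99 TPM, against 24.12 TPM for Il6st. In Vehicle 3 it was at 2.30 TPM, against 40.35 TPM.

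Of the 4 JAK kinases 2 were tested, and Tyk2 and Jak3, whose products can also serve cytokine receptors, stayed at or below 1.42 TPM and 0.30 TPM. Of the 7 STAT factors 5 were tested, 4 higher and 1 lower, with a median log2 change of 0.47. Stat3 had the smallest unadjusted p of these.

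Inhibitors of the pathway went both ways. Of 16, 12 were tested, 6 higher and 6 lower, with a median log2 change of 0.0044. Pias2, a SUMO ligase of the family that restrains STAT factors, had the highest mean, with 43.4 ± 12.03 TPM in Vehicle and 55.1 ± 8.58 TPM with PGE2 (mean ± SD, n = 3 each). Socs4, a relative of Socs3, was the only inhibitor tested whose groups did not overlap. It was at 37.1, 40.8 and 47.2 TPM in the Vehicle libraries, against 35.19, 35.20 and 34.9 TPM with PGE2. Socs4 had a log2 change of -0.23 (95% confidence interval -0.91 to 0.44, limma Benjamini-Hochberg adjusted p = 1.00), and -0.14 without Vehicle 3.

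The other arm of gp130 signalling runs through the phosphatase SHP2, encoded by Ptpn11, and adaptors that lead to ERK. All 6 of its listed genes were tested, 3 higher and 3 lower. Ptpn11 had the highest mean, with 33.2 ± 7.31 TPM in Vehicle and 38.6 ± 15.9 TPM with PGE2 (mean ± SD, n = 3 each). Adam10 and Adam17 encode proteases that can release the IL6 receptor from the cell surface. Adam17 had the higher mean of the pair and overlapped, at 50.8 ± 16.4 TPM in Vehicle and 53.2 ± 8.06 TPM with PGE2 (mean ± SD, n = 3 each). Adam10 was at 60.05, 51.96 and 62.4 TPM in the Vehicle libraries, against 49.4, 50.1 and 30.95 TPM with PGE2, each PGE2 library below each Vehicle library. Its log2 change was -0.44 (95% confidence interval -1.15 to 0.28, limma Benjamini-Hochberg adjusted p = 1.00), and -0.22 without PGE2 3.

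Of 25 genes known as STAT3 targets in various cells, Stat3, Il6st, Osmr and Socs3 among them, 21 were tested. Their median log2 change was -0.029, 10 were higher and 11 lower, and none had an unadjusted limma p under 0.05. Ccnd1, the G1 cyclin, had the highest mean and overlapped, at 688 ± 43.8 TPM in Vehicle and 639 ± 147.5 TPM with PGE2 (mean ± SD, n = 3 each). Bcl2l1, which encodes the survival protein BCL-XL, was at 5.65, 5.0 and 9.40 TPM in the Vehicle libraries, against 1.53, 4.95 and 4.13 TPM with PGE2. The highest PGE2 library was 0.05 TPM under the lowest Vehicle library. The log2 change of Bcl2l1 was -0.81 (95% confidence interval -2.06 to 0.44, limma Benjamini-Hochberg adjusted p = 1.00), and it was -0.43 without PGE2 1.

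**Figure D4:**
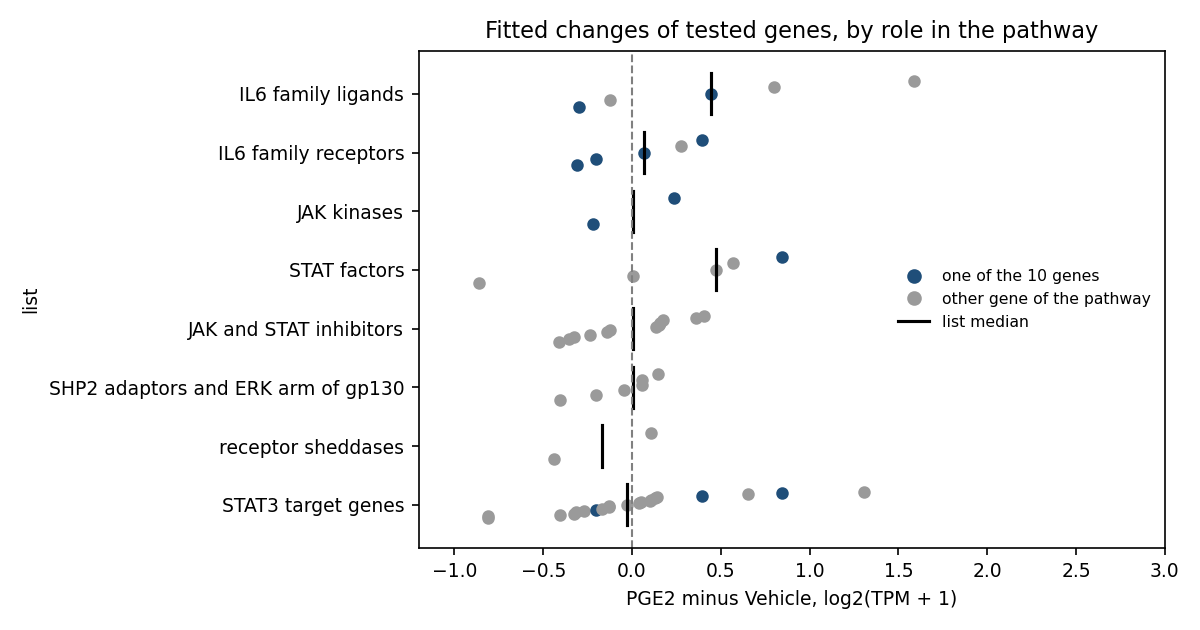
Fitted log2 change (PGE2 minus Vehicle, log2(TPM + 1) scale) of each tested gene by its role, with the 9 tested of the 10 genes in blue, others in grey and a bar at each list median; Stat3, Il6st and Osmr appear under both their role and STAT3 targets. The changes lie on both sides of 0 in all 8 lists, and the list medians run from -0.17 (receptor sheddases) to 0.47 (STAT factors).

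The pair of tested genes with the widest range over the 6 libraries were Il6 (2.44 on the log2 scale) and Lif (1.94). Likeness was the root mean square difference between log2(TPM + 1) profiles, each centred on its own mean over the 6 libraries, among 7349 tested genes that averaged at least 5 TPM. Among the genes nearest to Il6 were Cox5b (0.288) and Abhd14a (0.288), against a root mean square of 0.898 for Il6 about its own mean. Nearest to Lif were Htra2 (0.155), Tomm6 (0.171) and Srxn1 (0.175), against 0.664 for Lif itself. With 6 libraries and 7349 candidates, such closeness describes these libraries only.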

How the data were processed

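Gene expression was measured in 6 RNA libraries from 5000 to 10000 cultured muscle stem cells each, per the labels. Per the labels' protocols, RNA came from a Qiagen micro kit, with NuGEN Ovation amplification. STAR, RSEM and mm10 appear in the submitters' processing notes, without versions, settings or strand. The authors deposited TPM, in a table with a column for each library. The unit was inferred from 2 decimals and column sums of 992357 to 995645, since the header does not give it. TPM keeps no read depth, so no counting interval is given.

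Positions came from GENCODE M21. The 12781 genes at 1 TPM or above in 3 or more libraries were tested on log2(TPM + 1) with limma 3.58.1 (R 4.3.3, mean trend in the variance prior), two-sided. P-values were adjusted by Benjamini-Hochberg across those genes, with 0.05 as the threshold. Log2 changes understate those of low genes. Python 3.11.15 made tables and figures. The fit was tested on simulated data. The genes and lists were chosen with earlier results of these data known. Besides the 10 genes, named genes are those of the pathway lists averaging at least 5 TPM without overlap (up to 20), the highest of each list, and the 3 nearest profiles of 2 genes. Results of some genes are not reported here. Alternatives varied the pseudocount, filter, scaling, variance prior, library weights and block, or left out 1 library.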

Additional observations from a re-analysis of the deposited data

How the results depend on the processing

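None of the 10 genes passed the threshold in any of the 17 alternatives (0 in each), which is also the number in the analysis reported. Over all tested genes, 0 passed in the reported limma fit (464 at an unadjusted p under 0.05), 1 with a robust variance prior, 4 without a mean trend in the prior, and 0 to 2 when 1 library was left out. The count at an unadjusted p under 0.05 was 257 with a filter of 5 TPM, which tests fewer genes, 979 without PGE2 1 and 758 without PGE2 3. With 1 library left out, log2 changes ran from -0.94 to 0.28 for Il6, -0.76 to 0.14 for Il6st, -0.12 to 0.28 for Lifr, -0.62 to 0.10 for Jak1, -0.041 to 0.53 for Jak2, -0.39 to 0.20 for Clcf1, -0.13 to 0.48 for Ptpn11, -0.15 to 0.33 for Adam17 and -0.30 to 0.038 for Ccnd1, and so took both signs; the cause was not tested. With library weights Clcf1 was at 0.13. For Stat3, Osmr, Lif, Il6ra, Bcl2l1, Adam10, Socs4 and Pias2 the sign held in every alternative that could be run. With a filter of 5 TPM, Il6, Lif, Il6ra, Lifr, Osmr and Socs3 were not tested and had no value. Median-ratio and quantile scaling moved the median over all genes from -0.068 to -0.015 and -0.016. The labels do not say whether replicate numbers pair the libraries. Same-numbered libraries had deviations correlated at -0.062, -0.044 and 0.070 across genes, and differently numbered ones at -0.054 to 0.093. With 3 libraries per group, such values cannot show whether libraries were paired. With the replicate block the count over all genes was 0, and 482 had an unadjusted p under 0.05. Alternatives that need read counts were not run, since the table holds TPM. The wide intervals limit what 3 libraries per group can show: the interval of Stat3 spans no change and more than a doubling.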
